A study of Homo sapiens with 6 samples.

Results

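Axon guidance ligands and receptors were examined by RNA-seq in human definitive endoderm with and without knockdown of the long noncoding RNA GATA6-AS1. The genes are defined by symbol, and no measured value enters the rule, though the topic was picked with earlier results of these data known. The rule takes the semaphorins of classes 3 to 7, the plexins A to D, both neuropilins, the Eph receptors and ephrins of the A and B types, the SLIT and ROBO genes numbered 1 to 3, the netrins numbered 1 to 5 and the UNC5 receptors A to D. This rule found 67 genes among the 58830 of the deposited table, in 11 families, with 35 ligands and 32 receptors or coreceptors.

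The knockdown group (KD) was GATA6-AS1 knockdown HuES8 cells and the comparison group (DE) was wildtype HuES8 cells, 3 libraries of each, both taken as differentiated endoderm. HuES8 is a human embryonic stem cell line. Every culture received 100 ng/mL Activin A, with 2.5 µM CHIR, which turns on Wnt signalling by blocking GSK3, on the first day only, over 3 days in DMEM-F12 with 0.2% BSA and Penicillin-Streptomycin. The sources used here do not give the means of knockdown, a control construct in the wildtype cells or whether replicates were separate cultures. The p-values therefore reflect the spread among the 6 libraries alone, and this spread may be technical.

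Guidance molecules are cell surface or secreted proteins that attract or repel growing axons and migrating cells. Secreted class 3 semaphorins signal through neuropilins paired with plexins, transmembrane semaphorins bind plexins directly, netrins act through DCC, neogenin and the UNC5 receptors, SLITs through ROBOs, and ephrins are membrane-bound ligands of the Eph receptor tyrosine kinases. Outside the nervous system the same proteins are known for cell sorting, tissue boundaries and vessel growth, and in the vertebrate embryo Eph and ephrin genes are expressed from gastrulation on.

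Levels are TPM, read numbers scaled for gene length and library total, as the authors deposited them, so levels of different genes may be compared. The reads behind them, estimated from the steps between low values, numbered between 18640747 and 24510587 per KD library and between 18985377 and 23757169 per DE library, and 1 TPM of a 2 kb gene stood for 11.3 to 16.2 reads. Mitochondrially encoded RNA made up 28.3%, 28.8% and 36.2% of TPM in KD and 28.5%, 24.6% and 38.04% in DE, highest in the third replicate of each group. The 67 guidance genes together summed to 2189, 2229.5 and 1960 TPM in KD and 2331, 2379 and 1928 TPM in DE, lowest in the same 2 libraries. GATA6-AS1 had 180, 163 and 126 TPM in KD, against 388.5, 421 and 313 TPM in DE (log2 change of TPM + 1 of -1.26, limma adjusted p = 0.0128, 2-sided exact permutation p = 0.1, the smallest that 3 against 3 libraries allow). That call did not pass without KD replicate 2 (limma adjusted p = 0.0590) or DE replicate 1 (limma adjusted p = 0.0644). GATA6, the endoderm transcription factor gene beside it, had 251, 211 and 191 TPM in KD, against 367, 385 and 286 TPM in DE, and did not pass in the fit without a replicate block, although 6 of 16 alternatives called it, the block among them (log2 change -0.66, limma adjusted p = 0.0648, blocked adjusted p = 0.00500, exact permutation p = 0.1).

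The labelled cell type was checked with marker lists. All 8 definitive endoderm markers were expressed, summing to between 17922 and 19674 TPM in KD and between 24729 and 28273 TPM in DE, and 5 of them were lower in KD by the test and none higher. Most of these sums was CER1 alone, at a mean of 16815 TPM in KD and 23570 TPM in DE. The 6 stem cell markers summed to between 3111 and 3571 TPM in KD and between 2392 and 3034 TPM in DE, with 4 higher in KD and none lower. Both lists differed between the groups that the guidance genes are compared in, and their part in the results was not tested. In a bulk sample fewer cells of a type and less RNA per cell cannot be told apart. Of 8 neural markers 6 stayed under 1 TPM in every library, as did 4 of 6 endothelial markers (PECAM1, CDH5, TEK and ERG), while KDR was higher and VWF lower in KD. The 8 neural markers summed to between 6.63 and 9.13 TPM in KD and between 5.26 and 7.21 TPM in DE, and the 6 endothelial markers to between 130 and 141 TPM in KD and between 103 and 133 TPM in DE. Of the 6 mesoderm markers 2 stayed under 1 TPM in every library (MESP1 and MEOX1), and FOXF1 was too low to be tested. The 6 summed to between 61.9 and 65.9 TPM in KD and between 45.3 and 50.9 TPM in DE. Most of this was brachyury (T), at a mean of 56.4 TPM in KD and 35.8 TPM in DE. Brachyury was higher and HAND1 lower in KD. The 6 fibroblast markers summed to between 53.3 and 72.6 TPM in KD and between 62.4 and 84.6 TPM in DE, and none passed. Of these, 3 stayed under 1 TPM in every library (COL3A1, DCN and LUM).

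Of the 67 guidance genes, 57 reached 1 TPM in 3 or more of the 6 libraries and were tested with all other genes that did so. Their mean over the 6 libraries ran from 1.30 TPM for PLXNC1 to 181 TPM for NTN1, the founding member of the netrins. Next to NTN1 stood the ephrin receptor EPHA2, the transmembrane semaphorin SEMA6A and the secreted semaphorin SEMA3F. The 10 genes that were not tested were SEMA3C, PLXNB3, NTN3, NTN5, UNC5C, EPHA10, EPHA3, EPHA5, EPHA6 and SLIT1, none of which exceeded 1.05 TPM in any library.

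Members of 7 of the 11 families differed between KD and DE in the fit without a replicate block. Semaphorins did so in both directions, and each other family in a single direction. Of the 57 genes tested, 4 were higher in KD (SEMA6A, EPHB1, UNC5B and EFNB2) and 7 were lower (SEMA3E, PLXNA2, NRP1, SEMA6D, NTN4, SEMA5B and NRP2), at a limma adjusted p under 0.05 over all 17711 genes tested. That made 19.3% of the guidance genes tested, beside 3.27% of all genes tested (1.77% higher and 1.5% lower in KD). Among genes with a mean of at least 5 TPM the shares were 20% of 45 guidance genes and 4.16% of all genes. The median log2 change was -0.06 over the guidance genes and -0.005 over all genes tested. Regardless of sign, the median size of the change was 0.27 over the guidance genes and 0.15 over all genes tested. KD and DE libraries did not overlap for 23 guidance genes, 40.4% of those tested, beside 20.8% of all genes.

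Median-ratio scaling between libraries gave 20 guidance genes, 35.1%, beside 9.84% of all genes. With the replicate number as a block, 22 guidance genes passed, 8 higher and 14 lower in KD, which is 38.6% of those tested. The same fit called 12.5% of all genes, 5.88% higher and 6.62% lower. The 11 genes that passed without the block were all among the 22, and of the 11 that the block added, median-ratio scaling without a block called 9, all but PLXNA1 and PLXNA3. When 1 library was left out, between 1 (without KD replicate 2) and 12 (without DE replicate 3) guidance genes passed. The shares were 1.75% of guidance genes beside 0.437% of all genes without KD replicate 2. Without DE replicate 3 they were 21.1% beside 3.65%.

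**Figure D1:**
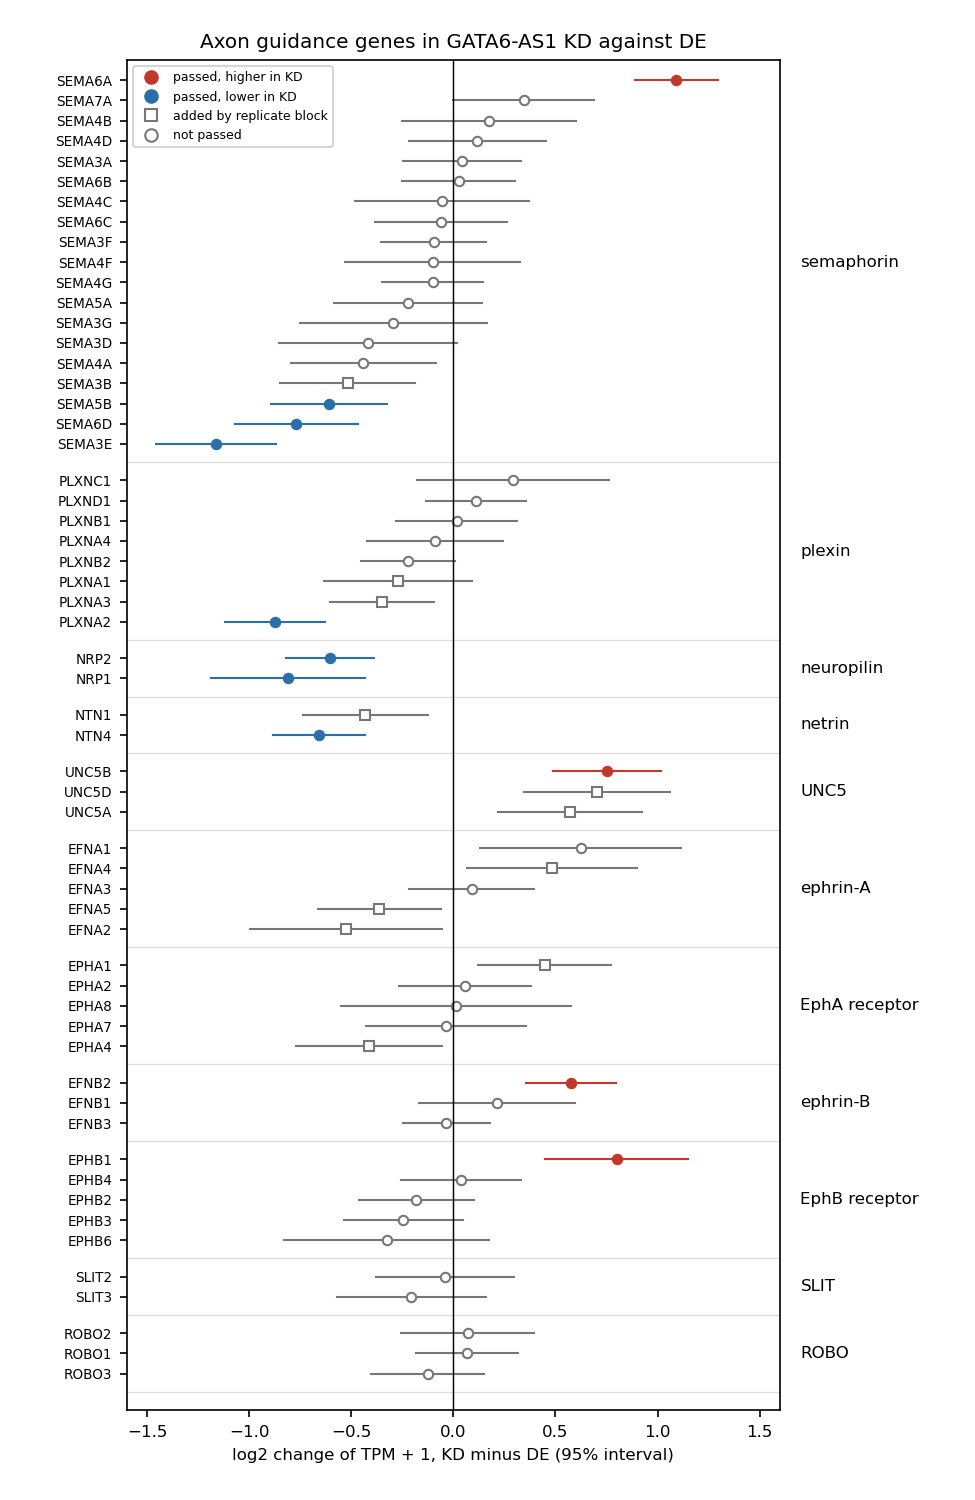
Log2 change (KD minus DE, of TPM + 1) with its 95% interval for the 57 guidance genes tested, grouped by family. Filled points passed the test over all genes (4 higher in red, 7 lower in blue), open squares are the 11 further genes that passed once the replicate number was added as a block, and open circles passed in neither fit. SEMA6A lies farthest to the right and SEMA3E farthest to the left.

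Semaphorins, the largest family of guidance ligands, changed in both directions. Of 20 genes 19 were tested, with 1 higher, 3 lower and 15 that did not pass in KD (1 higher and 4 lower with the replicate block). SEMA6A, a transmembrane ligand of the plexins PLXNA2 and PLXNA4, had 187, 204 and 206 TPM in KD, against 90.5, 96.9 and 91.0 TPM in DE. Every KD library held far more than any DE library, and the spread within each group was small. The means were 199 ± 10.4 TPM in KD and 92.8 ± 3.56 TPM in DE (SD, n = 3 each), 2.15 times as much (log2 change 1.09, 95% interval 0.89 to 1.29, limma adjusted p = 0.00277). SEMA6A rested on 6440 to 18226 estimated reads per library and was the one guidance gene that passed whichever of the 6 libraries was left out. The gene occupies bases 116443616 to 116574934 of chromosome 5, minus strand (GENCODE 29, GRCh38). Its antisense neighbour SEMA6A-AS1 shares 268 exon bases with it, which are 2.45% of the exon bases of SEMA6A. The share of the exon bases of SEMA6A-AS1 was not computed. SEMA6A-AS1 had 10.2, 10.2 and 10.7 TPM in KD, against 4.15, 4.63 and 3.94 TPM in DE, and rose as well (limma adjusted p = 0.00574). It did not pass without KD replicate 2 (limma adjusted p = 0.0501). Whether reads were counted by strand is unknown here, so those of the shared bases cannot be told apart.

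SEMA3E, a secreted class 3 semaphorin that binds PLXND1 without a neuropilin, fell most of all guidance genes tested. It had 11.8, 11.04 and 11.2 TPM in KD, against 26.2, 30.8 and 23.4 TPM in DE. The KD libraries lay close together and below each DE library. Its mean was 11.3 ± 0.425 TPM in KD and 26.8 ± 3.75 TPM in DE, 0.423 of the DE mean (SD, n = 3 each, log2 change -1.16, 95% interval -1.46 to -0.87, limma adjusted p = 0.00619). The call was lost only without KD replicate 2, where the limma adjusted p was 0.0501. PLXND1, its receptor, had 43.4 ± 2.70 TPM in KD and 40.1 ± 3.38 TPM in DE (SD, n = 3 each, log2 change 0.11, 95% interval -0.14 to 0.36) and did not pass. The gene SEMA3E spans 83363238 to 83649113 on the minus strand of chromosome 7 and shares no exon bases with another gene of GENCODE 29.

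The bases before the transcript starts of SEMA3E, of PLXNA2 (a plexin that also fell) and of EFNB2 (an ephrin that rose) are shown to set side by side genes that moved down and up. Each is the 250 bases before a start site in RefSeq on GRCh38.p14, 5′ to 3′ on the gene's strand, with capitals for AGATAA or its reverse complement TTATCT (a sequence that GATA factors are known to bind) and for GGGCGG or its reverse complement CCGCCC (the GC box of many promoters). The positions are chr7:83649140-83649389 for the upstream start of SEMA3E, chr7:83641432-83641681 for its internal start, chr1:208244385-208244634 for PLXNA2 and chr13:106535663-106535912 for EFNB2, all on the minus strand, and no window holds exon bases of GENCODE 29.
SEMA3E upstream start: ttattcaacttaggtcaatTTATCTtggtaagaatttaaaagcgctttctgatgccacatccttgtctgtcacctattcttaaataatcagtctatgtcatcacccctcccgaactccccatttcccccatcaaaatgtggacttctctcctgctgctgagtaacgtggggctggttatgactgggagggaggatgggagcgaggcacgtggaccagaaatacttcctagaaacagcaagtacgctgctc
SEMA3E internal start: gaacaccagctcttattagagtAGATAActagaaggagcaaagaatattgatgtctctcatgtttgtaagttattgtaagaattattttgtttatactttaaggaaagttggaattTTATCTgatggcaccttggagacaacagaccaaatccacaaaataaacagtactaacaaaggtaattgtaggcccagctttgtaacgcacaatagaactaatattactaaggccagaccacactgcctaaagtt
PLXNA2: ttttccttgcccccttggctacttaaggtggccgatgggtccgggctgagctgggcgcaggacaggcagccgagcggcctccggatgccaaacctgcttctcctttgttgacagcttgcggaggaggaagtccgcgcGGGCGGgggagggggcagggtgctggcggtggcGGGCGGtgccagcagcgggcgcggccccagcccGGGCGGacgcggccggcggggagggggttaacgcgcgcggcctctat
EFNB2: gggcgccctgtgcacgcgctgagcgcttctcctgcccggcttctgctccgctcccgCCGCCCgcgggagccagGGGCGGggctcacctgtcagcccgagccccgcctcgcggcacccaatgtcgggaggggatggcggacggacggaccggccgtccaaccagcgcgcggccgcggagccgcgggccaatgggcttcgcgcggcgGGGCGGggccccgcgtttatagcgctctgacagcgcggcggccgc

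The SEMA3E windows held 1 and 2 matches to AGATAA on either strand and none to GGGCGG, with 46.4% and 34.8% G and C. PLXNA2 and EFNB2 held 3 matches each to GGGCGG and none to AGATAA, with 72.4% and 78.4% G and C. Of all 35116 RefSeq windows of this length, 9.17% held AGATAA and 42.6% held GGGCGG on either strand, and the median content of G and C was 58%. Windows were given for 8 of the 11 genes that passed, 14 windows in all, of which 3 held AGATAA (those of SEMA3E and 1 of 3 of SEMA5B) and 7 held GGGCGG. None of the 14 held TGTTTAC, the core bound by forkhead factors, or ATGCAAAT, the octamer bound by POU factors, which occurred in 2.98% and 1.63% of all windows on either strand. The others that passed are SEMA6A, UNC5B and NRP1. A match describes letters and is not a bound site.

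SEMA6D and SEMA5B, both transmembrane semaphorins, were lower in KD too. SEMA6D, a ligand of PLXNA1, had 11.6, 9.34 and 9.87 TPM in KD, against 18.5, 19.8 and 16.3 TPM in DE (log2 change -0.77, limma adjusted p = 0.0255). SEMA5B, whose outer part carries thrombospondin repeats, had 20.3, 19.8 and 18.3 TPM in KD, against 34.2, 30.5 and 26.5 TPM in DE (log2 change -0.61, limma adjusted p = 0.0457). All KD libraries lay below all DE libraries for both. Both calls were lost when any library other than DE replicate 3 was left out, at limma adjusted p of 0.0610 to 0.144 for SEMA6D and 0.131 to 0.192 for SEMA5B. They were also lost without a filter on low values (limma adjusted p = 0.0629 for SEMA6D and 0.0958 for SEMA5B), and that of SEMA5B in limma without the trend (limma adjusted p = 0.0609).

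Of the other 5 class 3 semaphorins tested none passed. SEMA3B had 4.87 ± 0.688 TPM in KD and 7.38 ± 0.617 TPM in DE (SD, n = 3 each, log2 change -0.52, limma adjusted p = 0.114, blocked adjusted p = 0.0251). SEMA3F, the class 3 ligand with the highest level and a partner of NRP2, had 129.9 ± 10.8 TPM in KD and 139 ± 13.1 TPM in DE, with overlapping libraries (log2 change -0.10, 95% interval -0.35 to 0.16). SEMA3A, the classic repellent that acts through NRP1, had 12.7 ± 0.829 TPM in KD and 12.3 ± 1.39 TPM in DE. None of the 6 class 4 semaphorins passed, SEMA4C being the highest at 88.7 ± 14.7 TPM in KD and 92.7 ± 17.6 TPM in DE. The summed TPM of class 6 was 284, 299 and 289 in KD, against 193, 207 and 179 in DE, without overlap, and SEMA6A was the largest part of it. SEMA6B had 53.2 ± 3.45 TPM in KD and 52.5 ± 6.45 TPM in DE, and SEMA6C 28.3 ± 3.46 TPM in KD and 29.6 ± 3.63 TPM in DE.

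Among the receptors of semaphorins, both neuropilins, coreceptors of class 3 semaphorins and of VEGF, were lower in KD. NRP2 had 58.0, 54.8 and 56.7 TPM in KD, against 83.3, 93.6 and 82.7 TPM in DE, without overlap. Its means were 56.5 ± 1.64 TPM in KD and 86.6 ± 6.15 TPM in DE (SD, n = 3 each, log2 change -0.61, limma adjusted p = 0.0196). NRP1 was present at a much lower level, with 2.26, 1.999 and 1.75 TPM in KD, against 4.74, 4.56 and 3.53 TPM in DE, 0.468 of the DE mean (log2 change -0.81, limma adjusted p = 0.0457). These low values rested on 147 to 163 estimated reads per KD library and 263 to 391 per DE library. Both calls were lost when any library other than DE replicate 3 was left out, at limma adjusted p of 0.0619 to 0.13 for NRP2 and 0.115 to 0.19 for NRP1, and that of NRP1 also without a filter on low values (limma adjusted p = 0.136).

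Among plexins, the signalling receptors of semaphorins, PLXNA2 fell. It had 40.3, 35.0 and 37.0 TPM in KD, against 74.0, 71.2 and 63.3 TPM in DE. The groups lay well apart, with means of 37.4 ± 2.68 TPM in KD and 69.5 ± 5.52 TPM in DE (SD, n = 3 each, log2 change -0.87, 95% interval -1.12 to -0.63, limma adjusted p = 0.00953). PLXNA2 lost its call without KD replicate 2 (limma adjusted p = 0.0681) or DE replicate 1 (limma adjusted p = 0.0632). PLXNA2 spans 208022242 to 208244320 on the minus strand of chromosome 1. The other 7 plexins tested did not pass, and with the replicate block PLXNA1 and PLXNA3 were lower as well. PLXNA3 had 20.0, 21.5 and 18.0 TPM in KD, against 27.3, 24.9 and 24.4 TPM in DE (log2 change -0.35, limma adjusted p = 0.169, blocked adjusted p = 0.0372). PLXNA1 had 71.4 ± 8.91 TPM in KD and 86.8 ± 14.4 TPM in DE (log2 change -0.27, limma adjusted p = 0.503, blocked adjusted p = 0.0407). PLXNB2, the plexin with the highest level, had 79.6 ± 1.22 TPM in KD and 93.4 ± 8.75 TPM in DE and did not pass (log2 change -0.22, 95% interval -0.45 to 0.01). The summed TPM of the 9 plexins was 310.1, 319 and 284 in KD, against 397, 382.5 and 324 in DE.

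**Figure D2:**
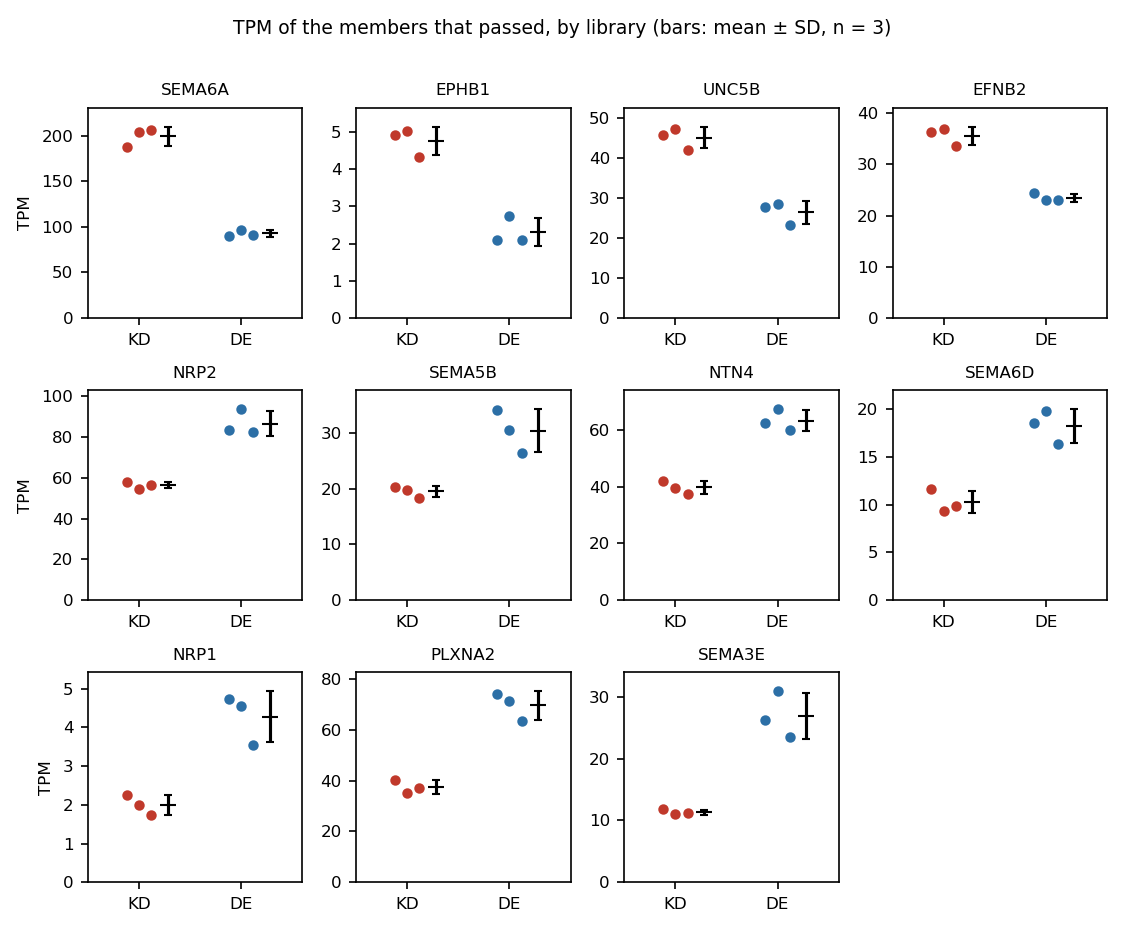
TPM of the 11 guidance genes that passed, in each KD (left, red) and DE (right, blue) library, with the mean ± SD of 3 libraries as a black bar. The y axes start at 0 and differ between panels, and the KD and DE libraries do not overlap in any panel.

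Of the 2 netrins tested 1 was lower in KD, and of the 3 UNC5 receptors tested 1 was higher. NTN4, a netrin related to laminin beta chains, had 41.9, 39.5 and 37.5 TPM in KD, against 62.5, 67.2 and 59.8 TPM in DE, without overlap. The means were 39.7 ± 2.21 TPM in KD and 63.2 ± 3.74 TPM in DE (SD, n = 3 each, log2 change -0.66, limma adjusted p = 0.0166). NTN1, the main ligand of DCC and UNC5 receptors, had 159, 162 and 139 TPM in KD, against 216, 234 and 175 TPM in DE. Its KD libraries also lay below all DE libraries, but the DE libraries spread widely, and it did not pass, although 6 of 16 alternatives called it, the block among them (log2 change -0.43, limma adjusted p = 0.153, blocked adjusted p = 0.00811). NTN4 lost its call when any library other than DE replicate 3 was left out (limma adjusted p 0.0598 to 0.111).

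UNC5 receptors mediate repulsion from netrins, and in the absence of the ligand are known to promote cell death. UNC5B had 45.7, 47.3 and 42.1 TPM in KD, against 27.6, 28.3 and 23.1 TPM in DE. Each KD library held more than any DE library, 1.71 times as much on average (log2 change 0.75, 95% interval 0.49 to 1.02, limma adjusted p = 0.0191). UNC5D had 8.41, 8.66 and 7.66 TPM in KD, against 4.86, 5.56 and 3.75 TPM in DE (log2 change 0.70, limma adjusted p = 0.0582, blocked adjusted p = 0.0118). UNC5A had 5.37, 6.34 and 5.23 TPM in KD, against 3.53, 4.01 and 2.91 TPM in DE (log2 change 0.57, limma adjusted p = 0.104, blocked adjusted p = 0.0244). UNC5A, UNC5B and UNC5D lay higher in every KD library than in every DE library, while UNC5C, which was not tested, had 0.232, 0.23 and 0.301 TPM in KD, against 0.327, 0.554 and 0.348 TPM in DE. UNC5B lost its call without KD replicate 1, KD replicate 2 or DE replicate 1 (limma adjusted p 0.0796 to 0.119). UNC5B spans 71212570 to 71302864 on the plus strand of chromosome 10.

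The summed TPM of the 4 UNC5 genes was 59.7, 62.5 and 55.2 in KD, against 36.3, 38.5 and 30.1 in DE, while that of the 4 netrins was 202.04, 202.2 and 177 in KD, against 279, 302 and 235 in DE. Ratios within a library do not depend on the scaling between libraries, and 3 of them, chosen after the values were seen, are given as a description. The ratio of UNC5B to NTN1 was 0.287, 0.292 and 0.303 in KD and 0.128, 0.121 and 0.132 in DE. SEMA6A over PLXNA2 was 4.64, 5.84 and 5.56 in KD and 1.22, 1.36 and 1.44 in DE. SEMA3E over PLXND1 was 0.279, 0.238 and 0.271 in KD and 0.648, 0.711 and 0.64 in DE. KD and DE libraries did not overlap in any of these ratios. For SEMA6A over PLXNA2 and UNC5B over NTN1 that follows from the single genes, whose groups lay apart in opposite directions.

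**Figure D3:**
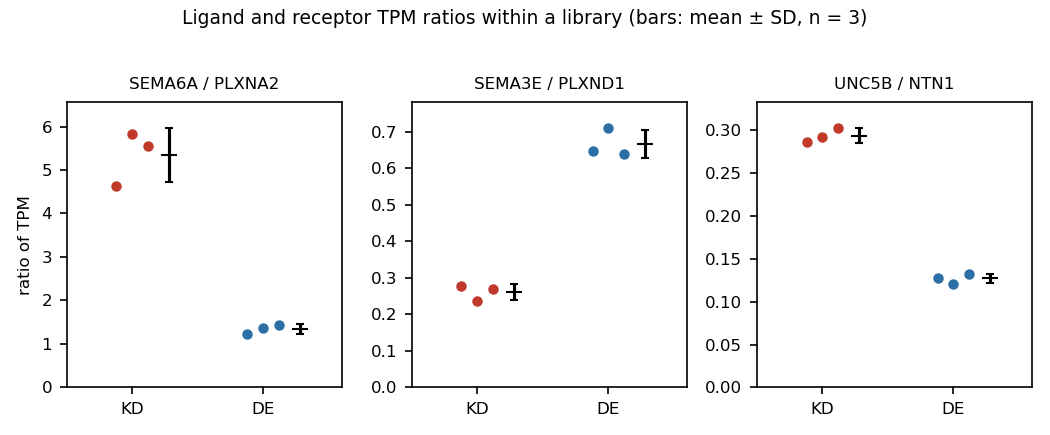
Ratio of TPM between a ligand and a receptor within each KD (left, red) and DE (right, blue) library, with the mean ± SD of 3 libraries as a black bar. SEMA6A over PLXNA2 averaged 5.35 in KD and 1.34 in DE, SEMA3E over PLXND1 0.262 in KD and 0.666 in DE, and UNC5B over NTN1 0.294 in KD and 0.127 in DE.

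Among ephrins and Eph receptors, a ligand and a receptor of the B type rose. EFNB2, a transmembrane ligand of EphB receptors, had 36.3, 36.8 and 33.6 TPM in KD, against 24.4, 23.1 and 23.1 TPM in DE. The groups did not overlap, with 1.51 times as much in KD (log2 change 0.58, 95% interval 0.36 to 0.79, limma adjusted p = 0.0233). In GENCODE 29 it shares 26.2% of its exon bases with a gene on the opposite strand, AL138689.2, and reads of these bases cannot be told apart. EPHB1, a receptor of B-type ephrins, had 4.92, 5.03 and 4.34 TPM in KD, against 2.11, 2.75 and 2.09 TPM in DE, 2.05 times as much (log2 change 0.80, 95% interval 0.45 to 1.15, limma adjusted p = 0.0368). It rested on 193 to 244 estimated reads per KD library and 94 to 123 per DE library. EFNB2 lost its call when any library other than DE replicate 3 was left out (limma adjusted p 0.0605 to 0.158). EPHB1 lost its call when any of the 6 libraries was left out (limma adjusted p 0.0584 to 0.19) and without a filter on low values (limma adjusted p = 0.115).

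The other members of the B type did not pass. EPHB4, the preferred receptor of EFNB2, had 97.6 ± 11.05 TPM in KD and 95.04 ± 10.3 TPM in DE (SD, n = 3 each, log2 change 0.04, 95% interval -0.26 to 0.33). EFNB3 had 36.3 ± 0.706 TPM in KD and 37.2 ± 1.96 TPM in DE (log2 change -0.03, 95% interval -0.25 to 0.18), and EFNB1 37.9 ± 6.95 TPM in KD and 32.4 ± 4.64 TPM in DE. EPHB3 and EPHB2 had 54.6 ± 5.38 and 14.8 ± 1.25 TPM in KD, against 65.0 ± 7.43 and 16.9 ± 1.62 TPM in DE.

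None of the 5 A-type ephrins or the 5 A-type receptors tested passed, and with the replicate block 2 members of the A type were higher and 3 lower. The blocked calls were 3 of these 5 ephrins (60%) and 2 of these 5 receptors (40%), few genes for a share, beside 12.5% of all genes. EPHA1 had 123, 136 and 108 TPM in KD, against 94.7, 99.0 and 75.2 TPM in DE (log2 change 0.45, limma adjusted p = 0.164, blocked adjusted p = 0.00660). EFNA4, a ligand anchored by a lipid as all A-type ephrins are, had 29.6, 24.2 and 22.7 TPM in KD, against 20.03, 20.5 and 13.9 TPM in DE (log2 change 0.48, limma adjusted p = 0.242, blocked adjusted p = 0.0319). Both lay higher in every KD library than in every DE library. EFNA4 shares 15.0% of its exon bases with a readthrough locus in GENCODE 29, AL691442.1, which covers 44.7% of those of EFNA3.

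EFNA2, the A-type ephrin with the highest level, had 57.4, 68.9 and 47.7 TPM in KD, against 89.4, 101 and 63.5 TPM in DE. These libraries overlapped and were lowest in replicate 3 of both groups (log2 change -0.53, limma adjusted p = 0.266, blocked adjusted p = 0.0066). EPHA4, which binds ephrins of both types, had 25.8 ± 2.01 TPM in KD and 35.0 ± 6.42 TPM in DE (SD, n = 3 each, log2 change -0.41, limma adjusted p = 0.249, blocked adjusted p = 0.0381). EFNA5 had 18.6 ± 1.48 TPM in KD and 24.3 ± 3.16 TPM in DE (log2 change -0.36, limma adjusted p = 0.222, blocked adjusted p = 0.0365). EFNA1, the preferred ligand of EPHA2, was low, with 3.21, 3.63 and 2.24 TPM in KD, against 2.15, 1.41 and 1.28 TPM in DE (log2 change 0.62, limma adjusted p = 0.200), on 21 to 60 estimated reads per library. EPHA2 itself had 169.6 ± 18.7 TPM in KD and 164 ± 24.4 TPM in DE (log2 change 0.06, 95% interval -0.27 to 0.38).

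No SLIT or ROBO gene passed, with or without the block. ROBO1, the main SLIT receptor here, had 76.9 ± 2.41 TPM in KD and 73.7 ± 8.04 TPM in DE (SD, n = 3 each, log2 change 0.07, 95% interval -0.18 to 0.31). SLIT2, its ligand, had 14.7 ± 0.658 TPM in KD and 15.3 ± 2.65 TPM in DE (log2 change -0.04, 95% interval -0.38 to 0.30). SLIT3 had 2.60 ± 0.337 TPM in KD and 3.15 ± 0.382 TPM in DE. ROBO3, known from commissural axons of mammals, had 7.25 ± 0.431 TPM in KD and 8.01 ± 0.669 TPM in DE (log2 change -0.13, 95% interval -0.41 to 0.15). No interval of SLIT2, ROBO1 or ROBO3 reached 0.58, the smallest size of a log2 change among the guidance genes that passed. The guidance genes tested and not described so far, none of which passed with or without the block, had log2 changes between -0.44 for the class 4 semaphorin SEMA4A and 0.34 for SEMA7A, a semaphorin anchored by a lipid.

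**Figure D4:**
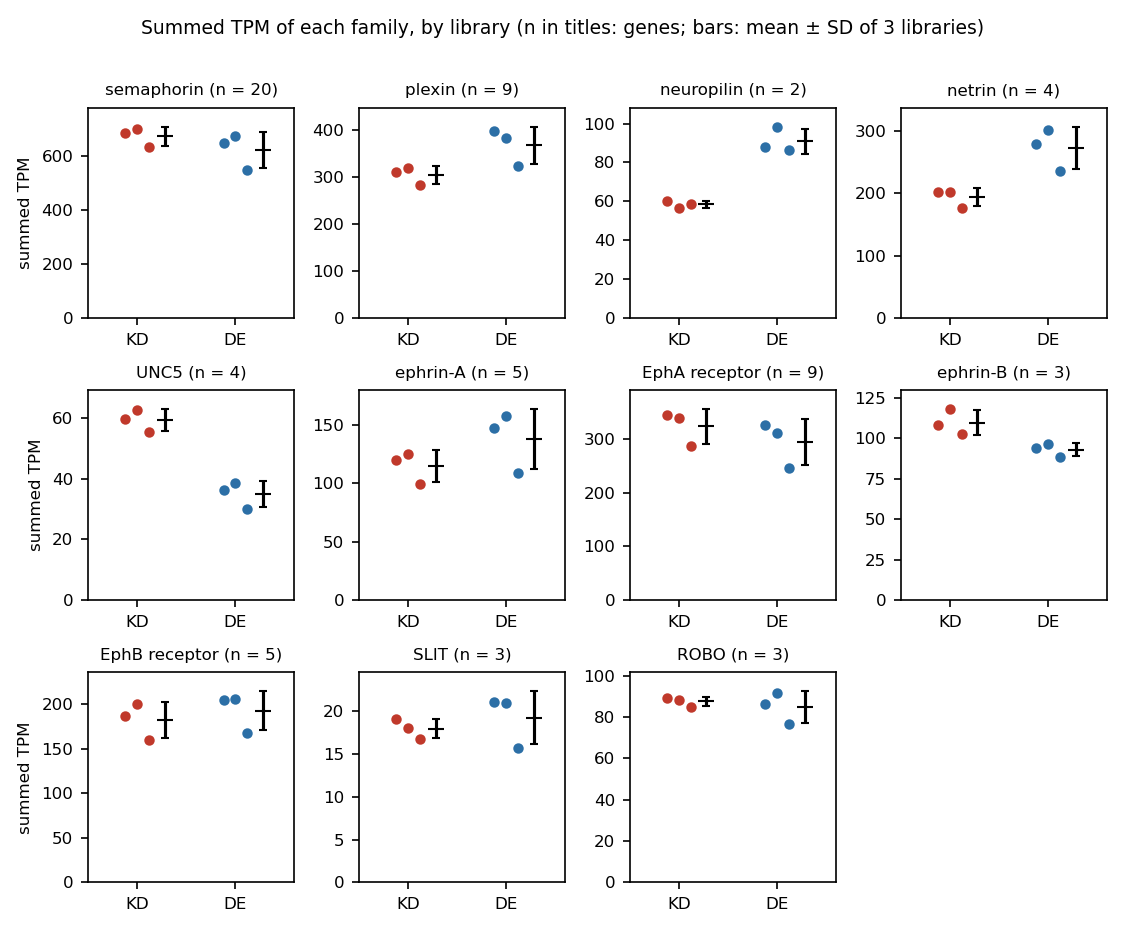
Summed TPM of each of the 11 families in each KD (left, red) and DE (right, blue) library, with the mean ± SD of 3 libraries as a black bar and y axes that start at 0. The groups do not overlap for plexins, neuropilins, netrins, UNC5 receptors and B-type ephrins, and they overlap for semaphorins, A-type ephrins, EphA and EphB receptors, SLITs and ROBOs.

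Whole families were also compared as summed TPM, as a description. B-type ephrins summed to 108.1, 118 and 103.1 TPM in KD, against 94.1, 96.6 and 88.8 TPM in DE, and neuropilins to 60.3, 56.8 and 58.4 TPM in KD, against 88.1, 98.2 and 86.2 TPM in DE. Semaphorins summed to 674 ± 34.9 TPM in KD and 625 ± 66.7 TPM in DE (SD, n = 3 each), with overlap, SEMA6A being higher and 3 other members lower in KD. All 35 ligands together summed to 1138, 1163 and 1030.4 TPM in KD, against 1192, 1252 and 998 TPM in DE, and all 32 receptors to 1051, 1066 and 929 TPM in KD, against 1139, 1127 and 930.02 TPM in DE. Both totals overlapped between the groups.

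A list of other genes of the guidance pathways was counted the same way. Of 73 genes 64 were tested, with 1 higher and 1 lower in KD, 3.125% beside the 3.27% over all genes. With the replicate block 9 were higher and 7 lower, 25% beside 12.5% of all genes, and median-ratio scaling called 20.3% beside 9.84%. KD and DE libraries did not overlap for 39.1% of the list, beside 20.8% of all genes. DSCAM, an immunoglobulin adhesion molecule that also acts as a netrin receptor, had 3.99, 4.03 and 4.11 TPM in KD, against 9.68, 9.32 and 10.2 TPM in DE, and passed whichever library was left out (log2 change -1.09, limma adjusted p = 0.00572). SPON1, which encodes the matrix protein F-spondin, had 5.39, 5.12 and 5.26 TPM in KD, against 1.56, 2.32 and 1.82 TPM in DE (log2 change 1.12, limma adjusted p = 0.0137). SPON1 lost its call without KD replicate 1, KD replicate 2 or DE replicate 1 (limma adjusted p 0.0620 to 0.0833) and without a filter on low values (limma adjusted p = 0.0515). The netrin receptor DCC stayed under 1 TPM in every library, while NEO1, which encodes neogenin, had 52.7, 52.8 and 53.0 TPM in KD, against 69.7, 75.0 and 66.1 TPM in DE (limma adjusted p = 0.0610, blocked adjusted p = 0.0124). None of the 18 semaphorin and plexin effectors, 9 Eph effectors and 19 SLIT and netrin effectors tested passed, and 6 of these were higher and 2 lower with the replicate block.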

How the data were processed

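Gene levels came as TPM that the authors deposited for 6 libraries, and every column adds up to 1000000. Named without a role in the submitters' processing notes are GRCh38, DESeq2, featureCounts and HISAT2 2.1.0. The sources used here do not give the annotation or the strand setting. Low TPM times the GENCODE 29 exon length fell within 0.02 of whole reads for 88.3% to 89.0% of values under 50 reads, which gave the estimated reads.

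Every gene that reached 1 TPM in 3 or more libraries was fitted as log2(TPM + 1) with limma 3.58.1 in R 4.3.3 (group as the term, eBayes with trend, 2-sided), adjusted by Benjamini-Hochberg over all 17711 genes, with a threshold of 0.05. A fold change on this scale understates the change of low genes. The topic, and with it the members, and the lists were chosen with earlier results of these data known; within the topic a symbol pattern set the members. Named are the members past the threshold with or without the block, and each family's highest and most changed tested member; others are given as context. In data simulated after this KD and DE comparison (17184 genes), limma recovered 11.8%, 55.6% and 94.2% of genes changed by 0.5, 1 and 2 on the log2 scale, with 5 false calls. The simulated noise was drawn independently for each gene and library, without shifts shared over a library. Changes were placed only on genes above a low level, which leaves out genes as low as NRP1 and EPHB1. The rates and false calls are therefore those of a simpler setting than the real libraries.

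Same-numbered KD and DE libraries deviated together over genes, at correlations of 0.108, 0.144 and 0.347, above the limit of 0.1 set for pairing. The unmatched KD replicate 1 and DE replicate 2 reached 0.121, so the pairing of replicates 1 and 2 is weakly determined. No label gives it. Blocked p-values come from the fit with the replicate number as a block.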

Additional observations from a re-analysis of the deposited data

How the results depend on the processing

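The counts of genes that passed moved with the processing, and no guidance gene that passed changed direction under any alternative. Over all genes 579 passed, and 239 without a filter on low values, 1743 with median-ratio scaling, 1735 with quantile normalization, 1682 with TPM recomputed without mitochondrial genes, 2215 with the replicate block and 1274 without replicate 3 of KD and of DE. Leaving out 1 library gave between 75 and 633. Of the guidance genes 11 passed, and under the same settings in the same order 7, 20, 20, 19, 22 and 19, and between 1 and 12 when 1 library was left out. Of the other pathway genes 2 passed, and 1, 13, 12, 16, 16 and 7 in the same order, 4 in limma without the trend, and between 1 and 4 when 1 library was left out. The log2 change of GATA6-AS1 lay between -1.38 and -1.11 when 1 library was left out. All 11 guidance genes remained called under each scaling, the block and the fit without replicate 3. A pseudocount of 0.1 and robust limma called the same 11, limma without the trend 10 of them, and a filter at a mean of 5 TPM 9, since NRP1 and EPHB1 lie below it. Named but uncalled genes whose log2 change turned sign were close to 0. With 1 library left out EPHA2 ranged from -0.060 to 0.16 (-0.060 without DE replicate 3, -0.016 without KD replicate 1), EPHB4 from -0.053 to 0.13, SLIT2 from -0.18 to 0.033 and ROBO1 from -0.021 to 0.13. The replicate block ended none of the 11 calls and changed no call of a named gene beyond those given with the results. The causes of these shifts were not tested. With 3 libraries per group, changes of 0.5 on the log2 scale were mostly missed on simulated data, so a gene that did not pass is not shown to be unchanged.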

Other observations

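The symbol rule leaves out relatives, antisense RNAs and overlapping neighbours of the guidance genes. Of 20 such genes 11 were tested and 2 passed, SEMA6A-AS1 and SLITRK2, beside 3.27% of all genes tested. With the replicate block 4 of the 11 passed, beside 12.5% of all genes. The genes described here were chosen after their values were seen. SLITRK2, a neuronal adhesion receptor with leucine-rich repeats like those of SLITs, had 15.8, 14.2 and 15.3 TPM in KD, against 26.6, 29.2 and 25.2 TPM in DE, and fell (log2 change -0.79, limma adjusted p = 0.0135). That call was lost without KD replicate 1, KD replicate 2 or DE replicate 1 (limma adjusted p 0.0556 to 0.0911). ROBO4, the endothelial member of the ROBO family, stayed under 0.1 TPM in every library. UNC5B-AS1 had 5.52, 8.69 and 5.95 TPM in KD, against 3.56, 5.07 and 3.28 TPM in DE (limma adjusted p = 0.193, blocked adjusted p = 0.0162). SEMA3B-AS1 had 12.1, 9.08 and 11.3 TPM in KD, against 20.7, 17.1 and 13.7 TPM in DE (limma adjusted p = 0.13, blocked adjusted p = 0.0321). EPHA1-AS1 had 1.84, 2.66 and 2.21 TPM in KD, against 1.47, 1.26 and 0.99 TPM in DE (limma adjusted p = 0.209). For each of these 3 antisense RNAs the KD libraries lay on the same side of the DE libraries as those of its sense gene. None of the 3 shares exon bases with it in GENCODE 29. Over all genes tested, KD and DE libraries did not overlap for 20.8%. SEMA3F-AS1, also tested, had overlapping libraries (log2 change 0.02), as did SEMA3F (log2 change -0.10), with opposite signs.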
